A study of Mus musculus with 14 samples.

Results

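The opioid system of the mouse is encoded by a small set of genes, of which 7 were examined here out of 43629 genes in the count tables. They were chosen by name, with earlier results of these data known. The set comprised the peptide precursors Penk, Pdyn and Pnoc, and the receptors Oprd1 (delta), Oprk1 (kappa), Oprm1 (mu) and Oprl1 (nociceptin). The first group of RNA-seq libraries, PTX, came from 4 primary hippocampal cultures that received 100 µM picrotoxin for 15 h. The second group, CTRL, came from 4 cultures that received 0.1% DMSO, the solvent, for 15 h. All cultures were made from C57BL6 wild-type mice of postnatal day 0 to 1 and were kept in B27 medium for 14 days in vitro, so they hold developing neurons and glia outside the animal. Separately, L3mbtl1 ChIP-seq was made from hippocampus of 3 L3mbtl1-/- and 3 wild-type mice of C57BL6/129 background, aged postnatal day 7 to 8, and was analysed here as the single deposited peak list.

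Opioid precursors are secretory proteins that are cut by prohormone convertases into short peptides. Penk yields the enkephalins, which act mainly on the delta and mu receptors, Pdyn yields the dynorphins, which act mainly on the kappa receptor, and Pnoc yields nociceptin, the ligand of the nociceptin receptor. The receptors couple to Gi/o proteins, which lower cyclic AMP, open GIRK potassium channels and reduce transmitter release. In the hippocampus, enkephalin is known from interneurons and from afferent and granule cell fibres, and dynorphin is best known from dentate granule cells and their mossy fibres. Picrotoxin closes the chloride channel of GABA-A receptors, which takes away fast inhibition and makes cultured neurons fire more. The comparison asks how transcripts of the opioid system stood after 15 h of this treatment.

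The RNA-seq libraries held 14524916 to 19498189 counts in genes. L3mbtl1, the chromatin reader that the study is named for, was at 1.52 to 5.60 CPM (counts scaled to a common library size) in PTX cultures and at 8.81 to 11.2 CPM in CTRL cultures (3.39-fold lower in PTX, adjusted p = 0.00249, edgeR quasi-likelihood test). Of 15959 tested genes, 6248 passed the threshold of an adjusted p under 0.05. This was 39.2% of them, with 19.0% higher and 20.1% lower in PTX, and the median log2 fold change over all tested genes was -0.03. Markers of neurons, astrocytes, microglia and the oligodendrocyte lineage were all detected.

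Precursor and receptor transcripts that could be tested moved in opposite directions. After picrotoxin, Penk was 21.9-fold, Pnoc 9.81-fold and Pdyn 2.19-fold higher, while Oprd1 was 9.69-fold and Oprl1 5.99-fold lower. Of the 7 genes, 5 passed the filter on low counts and were tested, and all 5 passed the threshold, 3 upward and 2 downward, against 39.2% of all tested genes. Oprd1 passed the filter through its CTRL libraries, and the 7 genes were chosen with earlier results of these data known. These counts, and those of overlap that follow, therefore describe the genes and carry no weight as a share. The PTX and CTRL libraries did not overlap for 4 of the 5 genes, against 38.0% of all tested genes, with Pdyn as the exception. Of these 4, 2 were higher and 2 lower, where 18.4% of all tested genes were higher and 19.5% lower without overlap. Oprm1 and Oprk1 were under the filter. These are levels in whole cultures, in which fewer cells of a type and less RNA per cell cannot be told apart.

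**Figure D1:**
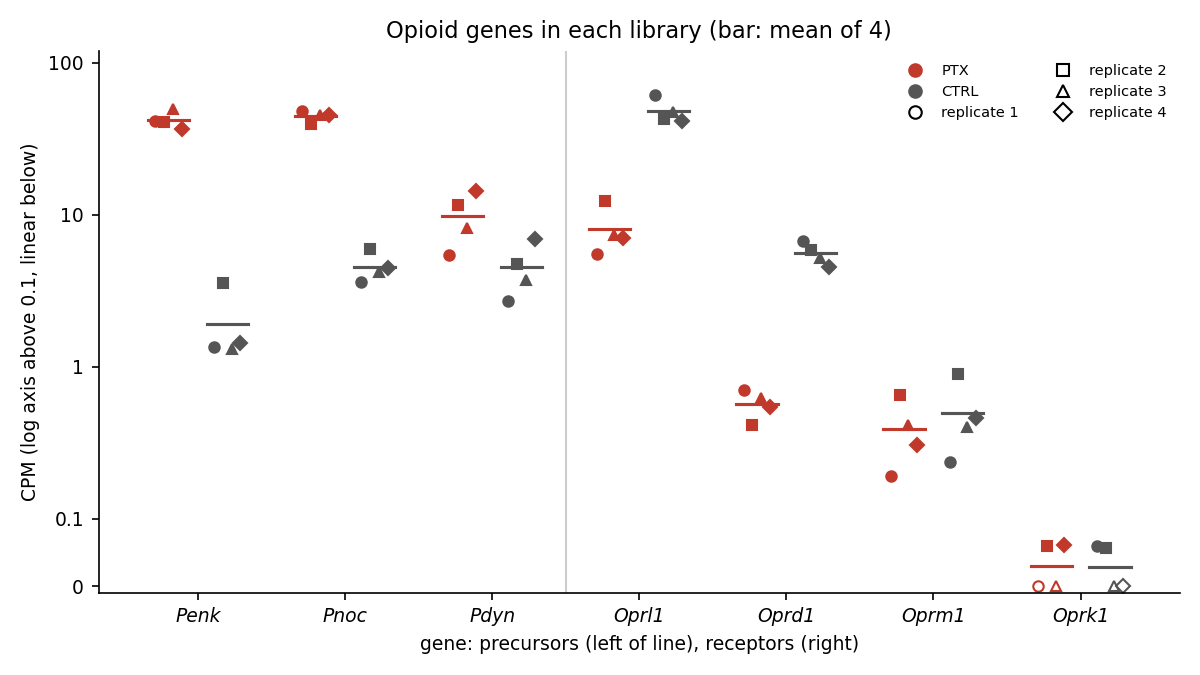
CPM (vertical axis) of each opioid gene in the 4 PTX and the 4 CTRL libraries, on a log axis above 0.1, with 1 symbol per library number and bars for the mean of 4. Penk and Pnoc lie above 36 CPM in every PTX library and below 6 CPM in every CTRL library, Oprd1 and Oprl1 lie lower in every PTX library, and the groups overlap for Pdyn, Oprm1 and Oprk1.

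Promoter windows of RefSeq (GRCm38.p6, the assembly of mm10), each running from 250 bases before to 50 bases after a transcription start, were matched for 4 of the 7 genes: Pdyn, Oprd1, Oprm1 and Oprl1. The first window of each of the 3 matched genes that passed the test is shown, because Pdyn rose and both receptors fell. They are Pdyn at chr2:129699889-129700188 (minus strand), Oprd1 at chr4:132144437-132144736 (minus strand) and Oprl1 at chr2:181714766-181715065 (plus strand). Capitals mark the motif CACGTG.
Pdyn: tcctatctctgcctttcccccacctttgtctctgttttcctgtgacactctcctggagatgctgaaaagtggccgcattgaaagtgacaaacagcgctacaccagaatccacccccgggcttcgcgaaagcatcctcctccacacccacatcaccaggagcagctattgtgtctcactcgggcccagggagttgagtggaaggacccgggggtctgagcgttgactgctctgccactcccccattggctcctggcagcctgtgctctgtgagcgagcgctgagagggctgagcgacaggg
Oprd1: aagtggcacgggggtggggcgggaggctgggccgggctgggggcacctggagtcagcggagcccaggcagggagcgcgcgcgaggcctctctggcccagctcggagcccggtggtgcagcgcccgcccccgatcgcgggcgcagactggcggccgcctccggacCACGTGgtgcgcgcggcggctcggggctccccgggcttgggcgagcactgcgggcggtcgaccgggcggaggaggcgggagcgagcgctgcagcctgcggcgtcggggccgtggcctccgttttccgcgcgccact
Oprl1: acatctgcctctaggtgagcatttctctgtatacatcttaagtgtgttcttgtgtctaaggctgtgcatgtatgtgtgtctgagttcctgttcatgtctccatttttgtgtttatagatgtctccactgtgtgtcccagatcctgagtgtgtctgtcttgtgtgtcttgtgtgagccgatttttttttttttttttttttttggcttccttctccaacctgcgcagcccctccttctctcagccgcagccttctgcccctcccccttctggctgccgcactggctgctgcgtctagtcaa
The window of Oprd1 is the most GC-rich of these, with 79.3% G or C, against 59.0% in the Pdyn window and 47.7% in the Oprl1 window. Motifs were searched on both strands as TGACGTCA (the cyclic AMP response element), its shorter form TGACG, which lies within it, TGANTCA (an AP-1 site) and CACGTG (an E-box). In all 9 windows of these 4 genes the single match was the CACGTG of Oprd1, whose first base lies 86 bases before the start. Only exact matches inside the windows were counted, so sites farther from a start or of another spelling were not covered. Penk, Pnoc and Oprk1 had no window to search. Of 32851 windows of the same length, 7.15% held CACGTG, 1.79% held TGACGTCA, 20.8% held TGACG and 7.81% held TGANTCA.

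Penk (ENSMUSG00000045573), the enkephalin precursor, lies on chromosome 4 at 4133536 to 4138815 (mm10). It was at 41.2, 40.6, 49.5 and 36.4 CPM in PTX libraries 1 to 4, and at 1.36, 3.53, 1.30 and 1.44 CPM in CTRL libraries 1 to 4. The groups were far apart, and CTRL library 2 was the highest of its group. The means were 41.9 ± 5.48 CPM in PTX and 1.91 ± 1.09 CPM in CTRL (SD, n = 4 each), from 2653 counts in PTX and 134 in CTRL over the group. The log2 fold change was 4.45 (SE 0.29, 95% interval 3.80 to 5.11, adjusted p = 3.93e-06, edgeR). Penk ranked 76 among the 15959 tested genes by the size of its rise. In all 4 pairs of same-numbered libraries PTX was the higher, by 3.52 to 5.25 on the log2 scale.

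Pnoc (ENSMUSG00000045731), the nociceptin precursor, lies on chromosome 14 at 65400673 to 65425564. It was at 48.4, 39.6, 45.3 and 45.4 CPM in PTX libraries 1 to 4, and at 3.60, 5.95, 4.19 and 4.44 CPM in CTRL libraries 1 to 4. Every PTX library lay above every CTRL library. The means were 44.7 ± 3.68 CPM in PTX and 4.55 ± 1.00 CPM in CTRL (SD, n = 4 each), from 2834 and 319 counts. The log2 fold change was 3.29 (SE 0.15, 95% interval 2.95 to 3.63, adjusted p = 6.09e-07, edgeR), rank 153 among the rises.

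Pdyn (ENSMUSG00000027400), the dynorphin precursor, lies on chromosome 2 at 129686549 to 129699938. It was at 5.42, 11.6, 8.14 and 14.3 CPM in PTX libraries 1 to 4, and at 2.71, 4.77, 3.70 and 6.93 CPM in CTRL libraries 1 to 4. The groups overlapped, since PTX library 1 lay below CTRL library 4. Within each pair of the same number, however, PTX was the higher by nearly the same factor, 1.00, 1.28, 1.14 and 1.04 on the log2 scale in pairs 1 to 4. The means were 9.86 ± 3.88 CPM in PTX and 4.53 ± 1.81 CPM in CTRL (SD, n = 4 each). The log2 fold change was 1.13 (SE 0.34, 95% interval 0.36 to 1.89, adjusted p = 0.0252, edgeR), and with the library number as a block the adjusted p was 6.34e-06 at a log2 fold change of 1.12. The block rests on pairing by library number, which is an assumption. Without the block the call was lost when PTX library 2 (adjusted p = 0.0623), PTX library 4 (0.0625), CTRL library 2 (0.0556) or CTRL library 3 (0.073) was left out.

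The 3 precursors together summed to 91.8 to 102.9 CPM per PTX library and to 7.67 to 14.3 CPM per CTRL library. By counts, Penk held 43.4% ± 4.20 of the precursor counts in PTX and 17.0% ± 5.86 in CTRL, while Pdyn held 10.3% ± 4.20 in PTX and 40.8% ± 9.31 in CTRL (SD, n = 4 each). Both shares had the smallest p that an exact 2-sided permutation test of 4 against 4 can give, 0.0286, and an adjusted p of 0.0571 over the 6 shares tested, which misses the threshold. The share of Pnoc, 46.3% ± 3.54 in PTX and 42.3% ± 5.50 in CTRL, gave p = 0.286 in the same exact test (adjusted 0.343). With p at its floor, the test cannot decide whether these 2 shares differ. It takes no account of the library numbers, and the shares within a family depend on each other. Shares are of counts, not corrected for transcript length, and this test was added after the values had been seen.

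Oprd1 (ENSMUSG00000050511), the delta receptor, lies on chromosome 4 at 132110188 to 132144486. It was at 0.702, 0.413, 0.620 and 0.546 CPM in PTX libraries 1 to 4, and at 6.66, 5.89, 5.19 and 4.51 CPM in CTRL libraries 1 to 4. The PTX values rest on 7 to 11 counts per library, so their own level is known only roughly, yet every one lay far below the lowest CTRL library. The means were 0.570 ± 0.123 CPM in PTX and 5.56 ± 0.925 CPM in CTRL (SD, n = 4 each). The log2 fold change was -3.28 (SE 0.24, 95% interval -3.80 to -2.75, adjusted p = 6.42e-06, edgeR). Among all tested genes this was rank 13 by the size of the fall.

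Oprl1 (ENSMUSG00000027584), the nociceptin receptor, lies on chromosome 2 at 181715000 to 181720985. It was at 5.55, 12.3, 7.31 and 7.04 CPM in PTX libraries 1 to 4, and at 61.5, 42.5, 47.7 and 41.4 CPM in CTRL libraries 1 to 4. Every PTX library lay below every CTRL library, and PTX library 2 was the highest of its group. The means were 8.04 ± 2.92 CPM in PTX and 48.3 ± 9.24 CPM in CTRL (SD, n = 4 each), from 517 and 3390 counts. The log2 fold change was -2.58 (SE 0.23, 95% interval -3.11 to -2.06, adjusted p = 2.34e-05, edgeR), rank 49 among the falls. Nociceptin precursor and nociceptin receptor thus changed in opposite directions in the same libraries.

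Oprm1 (ENSMUSG00000000766), the mu receptor, lies on chromosome 10 at 6758593 to 7038209. It was at 0.191, 0.649, 0.414 and 0.303 CPM in PTX libraries 1 to 4, and at 0.236, 0.898, 0.399 and 0.457 CPM in CTRL libraries 1 to 4. These values rest on 3 to 11 counts per PTX library and 4 to 16 per CTRL library, and the groups overlapped. In a fit without the filter the log2 fold change was -0.35 (SE 0.51, 95% interval -1.43 to 0.72, adjusted p = 0.673, edgeR). The interval holds falls, rises and no change, so these few counts do not settle a direction. The gene overlaps Ipcef1, which was at 8.30 to 9.16 CPM in PTX and at 42.1 to 60.8 CPM in CTRL (adjusted p = 1.44e-06, edgeR) and was looked up for this overlap after the values had been seen. The strand setting of the counting is not given in the sources used here, so reads of these overlapping genes cannot be told apart. Oprk1 (ENSMUSG00000025905), the dynorphin receptor, lies on chromosome 1 at 5588450 to 5606134. It had 2 counts over the PTX libraries and 2 over the CTRL libraries, at or below the floor of 3 counts, so no fold is given.

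The 4 receptors together summed to 6.45 to 13.4 CPM per PTX library and to 46.3 to 68.5 CPM per CTRL library. Within this sum Oprl1 held 88.5% ± 2.32 in PTX and 88.7% ± 1.72 in CTRL (SD, n = 4 each, exact permutation p = 0.943). Oprd1 held 7.07% ± 3.20 in PTX and 10.3% ± 1.10 in CTRL (exact permutation p = 0.114, adjusted 0.171). Oprm1, with its few counts, held 4.15% ± 0.938 in PTX and 0.975% ± 0.622 in CTRL, again at the smallest p the exact permutation test allows, 0.0286 (adjusted 0.0571). At this floor the test cannot decide here either. A higher share is not a higher level of Oprm1, which had 25 counts in PTX and 35 in CTRL. Oprl1, most of the sum, had 517 counts in PTX and 3390 in CTRL.

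**Figure D2:**
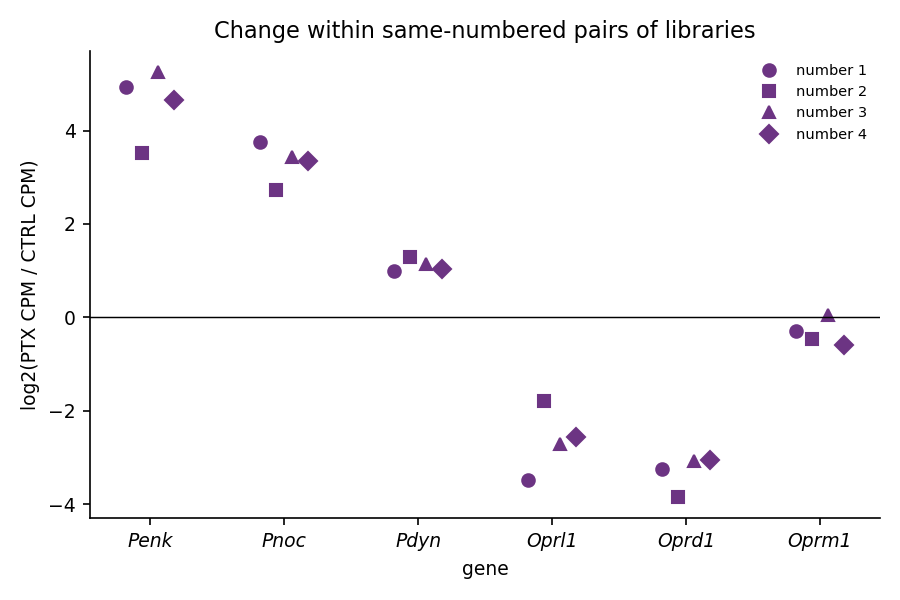
Log2 ratio of PTX over CTRL CPM (vertical axis) for each opioid gene except Oprk1 in the 4 pairs of libraries that share a number, 1 point per pair. Pdyn lies between 1.00 and 1.28 in every pair, and pair 2 has the smallest change of Penk, Pnoc and Oprl1.

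**Figure D3:**
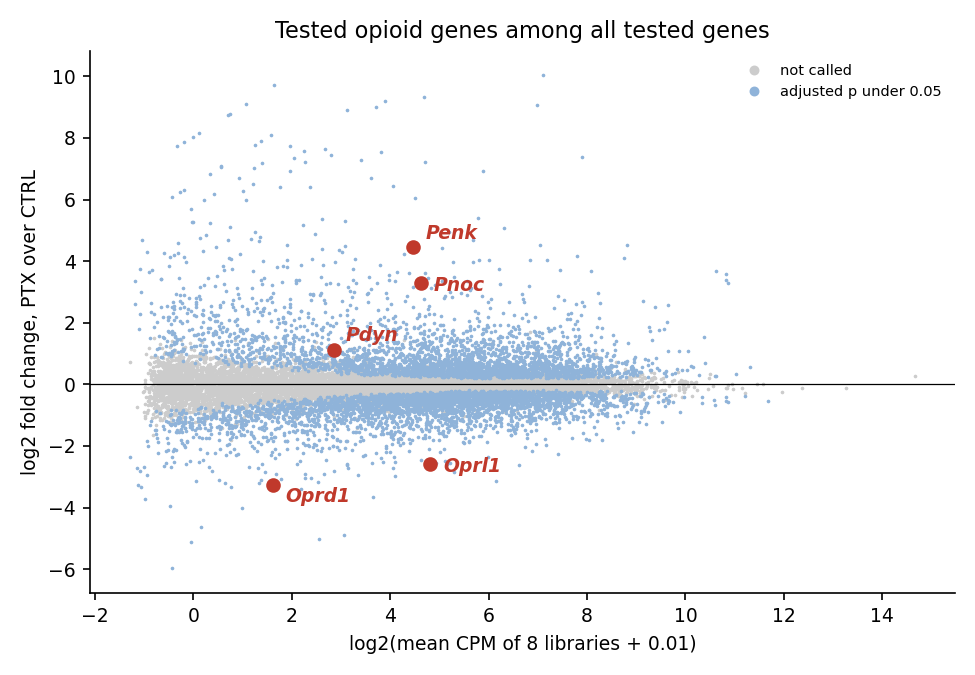
Log2 fold change, PTX over CTRL (vertical axis), against log2 of the mean CPM of the 8 libraries plus 0.01 (horizontal axis) for all 15959 tested genes, blue where the adjusted p was under 0.05 and grey elsewhere, with the 5 tested opioid genes named. Penk (4.45) and Pnoc (3.29) lie above most of the cloud and Oprd1 (-3.28) and Oprl1 (-2.58) below most of it, while Pdyn (1.13) lies inside it.

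Genes with the most similar pattern over the 8 libraries were taken by Pearson's r of log2 CPM, as a description, since with groups this far apart the group difference alone gives a high r. For Penk these were Sorcs3 (r = 0.999), Nptx2 (0.997) and Leprotl1 (0.997). For Pnoc they were Csrnp1 (0.998), Rab39 (0.997) and Dhx8 (0.997), and for Oprd1 they were Smim17 (0.998), Dbpht2 (0.997) and Sema5a (0.997). Oprl1 was most like Rbm11 (0.997), Tmem106b (0.996) and Ipo8 (0.995). For Pdyn the most similar genes were Rela (0.981), Pacsin2 (0.981) and Trim16 (0.979), with log2 fold changes of 0.15, 0.35 and 0.97. The size of the change was not shared in general, since Nptx2 had a log2 fold change of 4.53 but Leprotl1 of 1.15.

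The list of precursor processing held 8 tested genes, for enzymes that turn precursors into peptides and for the non-enzymes Pcsk1n and Scg5. Of these 4 rose and 2 fell, with a median log2 fold change of 0.30. Over all tested genes 19.0% rose and 20.1% fell. With the block 4 rose and 3 fell, since Scg5 passed as well (adjusted p = 0.00462, edgeR, against 0.0592 without the block). Over all 15959 tested genes 4097 rose and 4723 fell with the block. These backgrounds hold for every later list, markers included, and no list was tested as a set. Pcsk1, which encodes prohormone convertase 1/3, was at 862.8 ± 157.9 CPM in PTX and 37.4 ± 17.4 CPM in CTRL (SD, n = 4 each), 23.0-fold higher (adjusted p = 4.79e-06, edgeR). Pam, which amidates peptide ends, was 2.11-fold higher (adjusted p = 8.94e-06, edgeR). Furin, a convertase of the Golgi, was 2.41-fold and Ctsl, a cathepsin that can process proenkephalin, 1.52-fold higher. Pcsk2, the convertase that trims to the final opioid peptides, went the other way and was 2.19-fold lower (adjusted p = 2.19e-05, edgeR). Pcsk1n, an inhibitor of Pcsk1, was 1.34-fold lower (adjusted p = 0.0339, edgeR), a call that was lost when PTX library 3 or 4 or CTRL library 1, 2 or 3 was left out. Cpe, which removes the basic end residues, was at 3049 ± 498 CPM in PTX and 3048 ± 533 CPM in CTRL and was not called.

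Of 11 listed enzymes that break opioid peptides down, 10 were tested, none rose and 2 fell, with a median log2 fold change of -0.21. The falls make up 20% of the tested list, near the 20.1% over all tested genes. At an unadjusted p under 0.05 there were 1 higher and 5 lower, and DESeq2 called 1 higher and 2 lower. Dpp3, a dipeptidyl peptidase that cuts enkephalins, had a log2 fold change of -0.47 (adjusted p = 0.00146, edgeR). The other call, Npepps, the puromycin-sensitive aminopeptidase, had a log2 fold change of -0.27 at an adjusted p that rounds to 0.05, and was lost in 7 of the 8 fits that leave out 1 library. Without CTRL library 3 or CTRL library 4 the list had 1 call, and with upper-quartile scaling it had 4, all lower. Thop1, a thimet oligopeptidase, had a log2 fold change of 0.26 (adjusted p = 0.0517, edgeR). With the library number as a block, 1 gene of the list rose and 5 fell, with Thop1 as the rise (adjusted p = 0.00902, edgeR) and Mme, the gene of neprilysin, among the falls (0.000212, against 0.0568 without the block).

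Downstream of the receptors, genes of the Gi/o pathway were called in both directions, where 19.0% of all tested genes rose and 20.1% fell. Of 5 genes for Gi/o alpha subunits, Gnai3 was 1.21-fold higher (adjusted p = 0.00797, edgeR) and Gnao1, the main alpha subunit of neurons, 1.42-fold lower (adjusted p = 0.00287, edgeR), with a list median of -0.14 on the log2 scale. Of 3 tested GIRK channel genes out of 4, Kcnj9 was 2.71-fold lower (adjusted p = 4.09e-05, edgeR), Kcnj3 2.33-fold lower (adjusted p = 0.000149, edgeR) and Kcnj6 1.46-fold higher (adjusted p = 0.0146, edgeR). The GIRK median was -1.22. Of 8 tested adenylyl cyclase genes out of 9, Adcy8 was 3.62-fold higher (adjusted p = 5.08e-06, edgeR) and Adcy1, Adcy3 and Adcy6 were 2.31-fold, 1.51-fold and 1.30-fold lower, with a median of -0.31. Adcy8 and Adcy1 are the calcium-stimulated cyclases of neurons. The call of Adcy6 was lost without PTX library 3 (adjusted p = 0.0512, edgeR), and with the block 1 cyclase rose and 6 fell. Without PTX library 1, 7 cyclases were called.

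Among 8 tested receptor kinase and arrestin genes, which switch off and internalise active receptors, Grk5 was 2.28-fold higher (adjusted p = 4.28e-05, edgeR). Grk3 was 1.84-fold lower (adjusted p = 0.000442, edgeR) and Arrb2, which encodes beta-arrestin 2, 1.58-fold lower (adjusted p = 0.00176, edgeR). The median of the list was -0.10 on the log2 scale, and with the block 1 of its genes rose and 4 fell. RGS genes, many of whose proteins speed the shut-off of Gi/o alpha subunits, were listed together with Gnb5, which is not an RGS gene. Calls went in both directions: 7 of 15 tested rose and 3 fell, with a median of 0.26. Over all tested genes 19.0% rose and 20.1% fell. With the block 8 rose and 5 fell, since Rgs20, Rgs6 and Rgs14 passed as well. Rgs4 was at 3380 ± 319.0 CPM in PTX and 349.2 ± 99.4 CPM in CTRL (SD, n = 4 each), 9.68-fold higher (adjusted p = 2.73e-06, edgeR). Rgs7 was 4.96-fold and Rgs2 4.78-fold higher. The falls were Rgs11 at 3.29-fold, Rgs17 at 1.56-fold and Rgs19 at 1.45-fold lower, the last lost in 5 of the 8 fits that leave out 1 library.

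**Figure D4:**
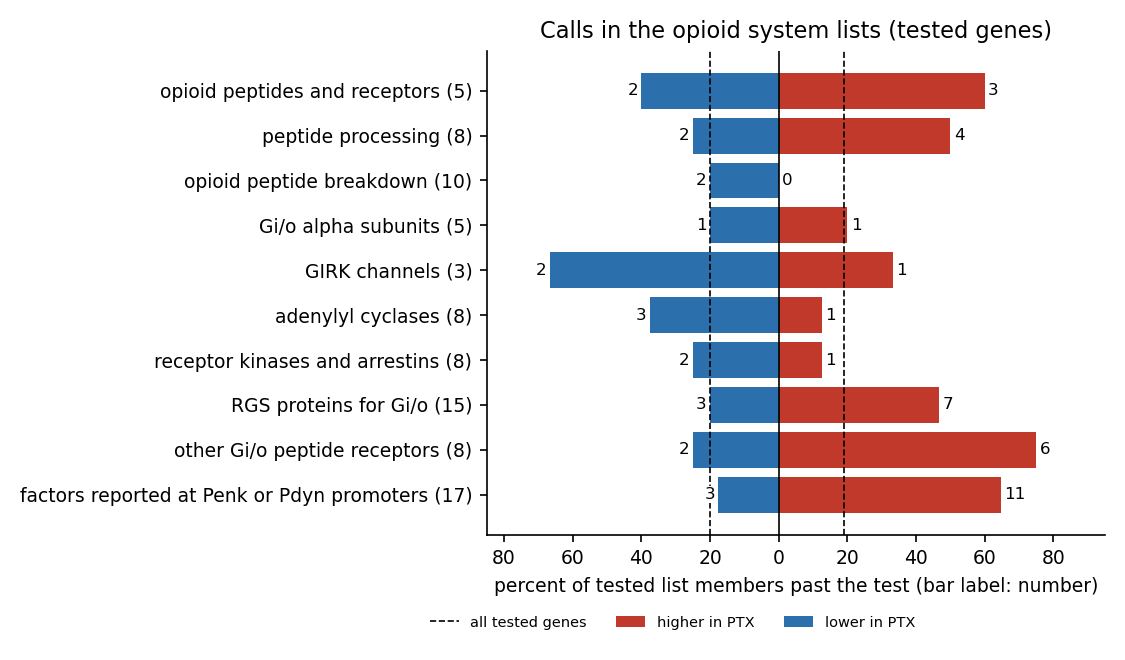
Percent of tested genes (horizontal axis) in each list of the opioid system that were higher in PTX (right, red) or lower in PTX (left, blue), with the number at each bar and dashed lines for all tested genes. Other peptide receptors and promoter factors hold mostly rises (6 of 8 and 11 of 17), and GIRK channels and adenylyl cyclases hold more falls than rises.

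Other peptide receptors that couple to Gi/o were mostly higher in PTX. Of 10 listed genes of somatostatin, neuropeptide Y and galanin receptors 8 were tested. Of these 6 rose and 2 fell, with a median log2 fold change of 1.65, where 19.0% of all tested genes rose and 20.1% fell. Galr1 reached the low-count cutoff in PTX libraries only, so it could be counted only as a rise, and without it 5 of 7 rose, 2 fell and the median was 1.50. Whether these genes differ from the opioid receptors was not tested. Galr1, a galanin receptor, had 808 counts over the PTX libraries and 4 over the CTRL libraries (12.7 ± 4.28 CPM in PTX and 0.0537 ± 0.0410 CPM in CTRL, SD, n = 4 each, adjusted p = 2.88e-06, edgeR). Npy1r was 6.37-fold and Sstr2 4.49-fold higher. The falls were Npy2r, 2.47-fold lower, and Sstr3, 1.75-fold lower, whose call was lost without PTX library 3 or PTX library 4.

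Of 17 genes for factors that have been reported at the Penk or Pdyn promoter, 11 rose and 3 fell, with a median log2 fold change of 0.71. The shares over all tested genes were 19.0% higher and 20.1% lower. Fosl1, an AP-1 subunit, reached the low-count cutoff in PTX libraries only, and without it 10 of 16 rose, 3 fell and the median was 0.65. Fosb, an AP-1 subunit, was at 44.5 ± 10.2 CPM in PTX and 0.658 ± 0.351 CPM in CTRL (SD, n = 4 each), 66.0-fold higher (adjusted p = 1.30e-06, edgeR). Fosl2, another AP-1 subunit, was 6.36-fold higher (adjusted p = 1.32e-06, edgeR), and Crem, a cyclic AMP response element modulator, 3.68-fold higher (adjusted p = 1.61e-06, edgeR). The falls were Kcnip3, which encodes DREAM, a calcium-sensitive repressor of Pdyn (1.92-fold lower, adjusted p = 0.00645, edgeR), Crtc1, a CREB coactivator (1.68-fold lower), and Nr3c1, the glucocorticoid receptor (1.43-fold lower). Creb1, Crtc2 and Crtc3 were not called, although Crtc3 passed with the block (adjusted p = 0.016, edgeR). No binding of these factors was measured.

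Cell type markers also differed between the groups, and their part in the results on opioid genes was not tested. Calls in the marker lists stand beside 19.0% higher and 20.1% lower over all tested genes. With the block they stand beside 4097 higher and 4723 lower of 15959. Dentate granule markers, of a cell type known for dynorphin, summed to 132.2 to 192.9 CPM in PTX and 299.0 to 443.5 CPM in CTRL, with 1 of 8 tested higher and 4 lower. The falls were Calb1 at 4.45-fold, Dsp at 3.19-fold, Stxbp6 at 2.37-fold and Prox1 at 1.76-fold lower. Calb1 had the highest CTRL level of the list, at 43.2 ± 6.13 CPM in PTX and 192.0 ± 40.7 CPM in CTRL (SD, n = 4 each). The sums therefore follow this gene in large part. The rise was C1ql2, 2.82-fold higher (adjusted p = 0.000436, edgeR), and Neurod1 was not called (adjusted p = 0.82, edgeR). With the block 1 rose and 6 fell, since Calb2 (adjusted p = 3.95e-06, edgeR, against 0.2 without the block) and Tdo2 (0.0489, against 0.144) passed as well. Inhibitory neuron markers summed to 1447 to 1656 CPM in PTX and 1105 to 1452 CPM in CTRL, with 6 of 16 higher and 4 lower, or 8 higher and 4 lower with the block. Gad2, an enzyme of GABA synthesis, was 1.84-fold higher and Dlx1, an interneuron transcription factor, 2.38-fold lower. Excitatory markers summed to 678.3 to 847.7 CPM in PTX and 495.6 to 618.5 CPM in CTRL, although 6 of 8 fell and 1 rose, because Slc17a6, a vesicular glutamate transporter, was 12.7-fold higher. With the block 6 fell and 2 rose. Camk2a, a kinase of excitatory neurons, was 2.18-fold lower.

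Among glia, astrocyte markers summed to 4725 to 6486 CPM in PTX and 6499 to 8667 CPM in CTRL. Of 10 tested, 5 fell, with Aldoc 2.62-fold and Aqp4 2.42-fold lower, and the other 5 were not called. Microglia markers summed to 44.2 to 192.1 CPM in PTX and 20.0 to 100.1 CPM in CTRL, and 1 of 9 rose, Cd68 by 3.18-fold, while P2ry12 was not called (adjusted p = 0.21, edgeR). Of 8 tested oligodendrocyte lineage markers edgeR called 0, with 0 at an unadjusted p under 0.05 and 0 by DESeq2. Without PTX library 1 there were 2 calls. The smallest p there belonged to Cnp (adjusted p = 0.137) and Olig2 (0.192). Their sums were 257.1 to 535.6 CPM in PTX and 229.7 to 466.7 CPM in CTRL. Of 9 fibroblast and vascular markers edgeR called 0, with 1 higher at an unadjusted p under 0.05 and 0 by DESeq2. Without CTRL library 1 there was 1 call. Pecam1 (adjusted p = 0.104) and Ogn (0.134) came first, and the sums were 167.8 to 349.6 CPM in PTX and 212.8 to 408.8 CPM in CTRL. With the library number as a block, 8 astrocyte markers fell, 3 microglia and 4 oligodendrocyte lineage markers rose, and 1 fibroblast and vascular marker rose and 4 fell. The adjusted p with the block was 0.0429 for P2ry12, 0.000473 for Cnp, 0.000429 for Olig2, 0.0484 for Pecam1 and 1.53e-05 for Ogn (edgeR). With the block and without both libraries numbered 1 these counts were smaller or changed direction: 6 astrocyte markers fell and 1 rose, 1 microglia marker and 3 oligodendrocyte lineage markers rose, and 2 fibroblast and vascular markers fell and none rose. No marker in any of these lists was at 0 in all libraries.

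Of the 7 opioid genes, 1 had an L3mbtl1 peak within 2000 bp of either of its ends, against 26.0% of the positioned tested genes. The sets are unlike, since the 7 include Oprm1 and Oprk1, which were under the filter and not tested. The gene with the peak was Penk. Its peak at chr4:4138190-4138778 is 589 bp long and lies inside the gene, beginning 625 bp and ending 37 bp from its higher-coordinate end. The strand of the gene is not in the table of gene positions, so this end is not called start or stop here. The score of the peak, the authors' own value, was 8.77, rank 3841 of 4677 peaks, whose scores run from 8.17 to 52.2 with a median of 10.7. It is thus among the weaker peaks of the list. The peak list is not divided between L3mbtl1-/- and wild-type hippocampus, so no difference between those genotypes is given.

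The other opioid genes had no peak in that window. The nearest peak to Pnoc was 40986 bp away, to Oprd1 66853 bp and to Pdyn 92041 bp. Oprm1 (173309 bp), Oprl1 (254690 bp) and Oprk1 (568384 bp) were farther still. The median over all positioned tested genes was 54519 bp. So of the 5 opioid genes that changed after picrotoxin, Penk had a peak at its end and Pnoc, Pdyn, Oprd1 and Oprl1 did not, and the ChIP-seq tissue was not treated.

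**Figure D5:**
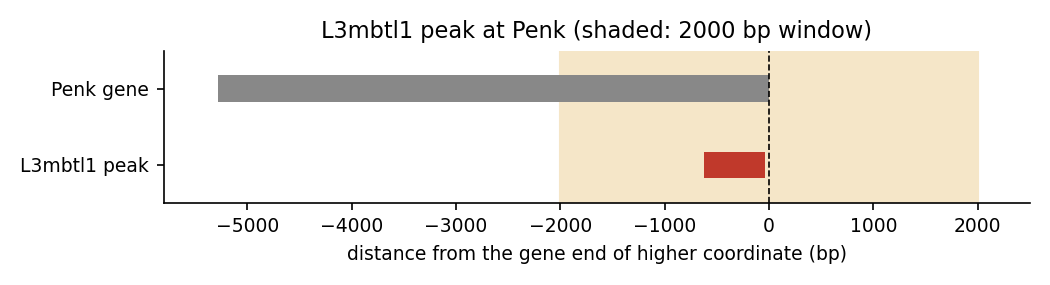
Position of the single L3mbtl1 peak near an opioid gene, drawn as distance in bp from the higher-coordinate end of Penk (horizontal axis), with the gene as a grey bar of 5280 bp, the peak as a red bar of 589 bp and the window of 2000 bp shaded. The peak lies inside the gene, from 625 to 37 bp before that end.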

How the data were processed

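RNA-seq (4 PTX, 4 CTRL libraries) was deposited by the authors as raw counts per Ensembl gene. Per the labels' protocols, total RNA was rRNA-depleted before ScriptSeq v2 library preparation. The submitters' processing notes list CASAVA 1.8, TopHat2 2.0.9, HTSeq 0.6.1, Bowtie2 2.2.4 and mm10. For the strand setting and annotation release, the sources used here give nothing. Lines naming no gene (19.9% to 26.8% of counted reads without a feature, 15.2% to 20.5% not unique) were left out. The ChIP-seq peak score was deposited by the authors in 1 list for all 6 samples. Its caller and thresholds: not given in the sources used here.

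Counts were compared with edgeR 4.0.16 in R 4.3.3 (quasi-likelihood F test, TMM, filterByExpr, group only) with Benjamini-Hochberg adjustment over all tested genes, threshold 0.05. CPM uses TMM-scaled library sizes, and the SE is the size of the log2 fold change divided by the square root of F. The words rose and fell mark calls. Alternatives were DESeq2 1.42.0, RLE and upper-quartile scaling, other filters, each library left out and a block for the library number. The numbers were taken to pair the libraries. Deviations from the group means had an r of 0.153 to 0.770 over 15959 genes in the 4 same-numbered pairs, against -0.501 to 0.209 in other pairs. Number 3 did not stand out: CTRL library 3 had r = 0.153 with PTX library 3, 0.207 with PTX library 2 and 0.209 with PTX library 4. Centring on group means also makes r negative for some pairs where it is positive for others. The pairing is thus an assumption. The series text calls the samples biological replicates, without saying which animals they came from.

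Gene positions and promoter windows came from RefSeq tables (GRCm38.p6). No transcript lengths were used, so shares of a gene within its family are shares of counts and say nothing of relative transcript levels. The planned description of protein sequences was not made, as proteins were not used here. Genes were named by rule: all 7 opioid genes, L3mbtl1, the 3 smallest p per list, the 2 smallest p per marker list, the 3 most similar genes with a mean CPM of at least 1, and list members where a count of 5 or fewer would stay unnamed. Other list members named for comparison were chosen after their values were seen. The members and lists were chosen with earlier results of these data known.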

Additional observations from a re-analysis of the deposited data

Results flagged for a closer look

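Within groups of 4 libraries, 98 sets of values from 49 genes were screened for a single library far from the rest, and 4 were found, where chance alone gives about 1 in 20. Penk was at 3.53 CPM in CTRL library 2, against 1.30 to 1.44 CPM in the other CTRL libraries. Without that library the log2 fold change of Penk was 4.93, against 4.45 with it. The other 3 are markers that were low in CTRL library 1. Cd68 was at 3.60 CPM there, against 11.4 to 11.8 CPM in the other CTRL libraries. P2ry12 was at 0.472 CPM, against 1.57 to 1.68 CPM. Cnp was at 16.6 CPM, against 27.7 to 29.5 CPM. By this screen no opioid gene was outlying in CTRL library 1. It was still the highest CTRL library for Oprl1 (61.5 CPM) and Oprd1 (6.66 CPM) and the lowest for Pdyn (2.71 CPM) and Pnoc (3.60 CPM). Both libraries numbered 1 had the lowest microglia sum of their group, 44.2 CPM in PTX and 20.0 CPM in CTRL. They also had the lowest oligodendrocyte lineage sum and the highest fibroblast and vascular sum.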

How the results depend on the processing

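Over 16 alternatives, Penk (log2 fold change 4.29 to 4.93), Pnoc (3.20 to 3.44), Oprd1 (-3.37 to -3.13), Oprl1 (-2.86 to -2.27) and L3mbtl1 (-2.29 to -1.50) passed the threshold in all 16. Pdyn passed in 12, and leaving out 1 library moved it between 0.95 and 1.40 (adjusted p 0.00719 to 0.073, edgeR). In the 4 fits in which it failed, the count of opioid genes called was 4 instead of 5. Oprm1 had values of -0.73 to 0.10 and was called in 0 of 15 fits (adjusted p 0.443 to 0.935). No value changed sign past the threshold. With the replicate block 8820 genes were called, 4097 higher and 4723 lower, against 6248 without it, and it changed no call on an opioid gene. The calls it changed in the lists are given beside them. Without both libraries numbered 1, all 5 opioid genes also stayed called. Over all alternatives 5119 to 8820 genes were called. Of the counts of calls in lists, 238 stayed within 1.5 times and 20 did not. Leaving out Galr1 or Fosl1 from its list was chosen after seeing the data. Penk kept its peak with windows of 1000, 5000 and 10000 bp, but with peaks at or above the median score only, 0 of 7 opioid genes had one. Depth limits Oprk1 and Oprm1, and the level of Oprd1 in PTX. P-values measure the spread between these cultures.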

Other observations

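The libraries numbered 2 had the smallest change of Penk, Pnoc and Oprl1 of the 4 pairs: the log2 ratio of PTX over CTRL there was 3.52 for Penk, 2.73 for Pnoc and -1.79 for Oprl1. For Oprd1 the same pair had the largest change, -3.83. L3mbtl1 was at 5.60 CPM in PTX library 2 and at 1.52 to 2.36 CPM in the other PTX libraries. The order of the libraries by Pdyn was 1, 3, 2 and 4, from low to high, in PTX and in CTRL alike. No test was made of these orders.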
